A study of Sus scrofa with 15 samples.

Results

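Peripheral whole blood of domestic pigs was compared between juvenile animals of 60 days and sexually mature animals of 180 days by small RNA sequencing. The comparison used 6 of the 15 libraries in the study, 3 per age, chosen by the age in their labels. The other 9 libraries came from pigs of 0, 30 and 360 days and entered the filter on low counts, the scaling factors and the estimate of the spread. No treatment, breed or sex is named in the labels, and they do not say whether an animal was bled at more than 1 age. The replicates are described as biological, with no further account of their source.

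MicroRNAs (miRNAs) are short RNAs cut from hairpin precursors. Loaded into an Argonaute protein, they pair with messenger RNAs, mainly through the bases near their 5′ end called the seed, and lower the output of those messengers. Whole blood holds the miRNAs of red cells, platelets and white cells together. Red cells keep miRNAs such as miR-451 after losing their nucleus, and white cells carry miRNAs that set lymphocyte and myeloid function. A level in whole blood therefore cannot tell fewer cells of a type from less RNA per cell.

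The 6 libraries held between 8226541 and 9844453 counts, and 242 to 255 of 293 miRNAs had at least 1 count in each. Levels are given as counts scaled to library size with TMM factors (normalised CPM). TMM factors correct for the composition of a library, and they were between 1.10 and 1.18 at day 60 and between 0.761 and 0.816 at day 180. A count of 0 allowed up to 0.302 to 0.326 normalised CPM at day 60 and 0.396 to 0.428 at day 180, counting error only. On the first principal component of the 6 libraries, with 37.4% of the variance, day 60 lay at -9.66, -0.53 and -2.79 and day 180 at 6.99, 5.03 and 0.97. Day 180 replicate 3 thus lay nearest to day 60, and on the second component it stood lowest at -7.80. Of 107 miRNAs with a mean of at least 50 normalised CPM at either age, 14 differed more than 2-fold between this library and the mean of the other day 180 libraries. That number was 16 for day 60 replicate 1, and between 2 and 11 for the other libraries.

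Blood miRNAs were present at both ages. miR-451, which is processed in red-cell precursors without Dicer, held 34.5%, 36.9% and 31.4% of the counts at day 60 and 37.0%, 49.2% and 49.3% at day 180. All day 180 libraries were above those of day 60, but replicate 1 by little. Its share averaged 34.3% ± 2.75 at day 60 and 45.2% ± 7.06 at day 180 (SD, n = 3). The difference of 10.9 percentage points gave p = 0.1 in an exact two-sided permutation test, the smallest p that 3 libraries against 3 allow. The widest 95% Wilson interval of a share among the 10 most abundant miRNAs spanned 0.0650 percentage points, so counting error was small beside the spread between libraries.

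Together these 10 miRNAs held 77.6% to 80.5% of the counts at day 60 and 83.5% to 86.0% at day 180. let-7i held 11.5%, 9.99% and 10.2% at day 60 and 13.2%, 10.2% and 10.1% at day 180, so its share overlapped between the ages. miR-486, another red-cell miRNA, held 2.46%, 3.10% and 2.76% at day 60 and 1.38%, 1.13% and 1.96% at day 180. The share of miR-486 was lower in every day 180 library, yet its normalised CPM overlapped between the ages. miR-7, known from brain and endocrine cells, held 4.20%, 4.33% and 4.26% at day 60 and 3.59%, 2.44% and 1.43% at day 180, and its normalised CPM overlapped too. miR-148a-3p, a repressor of DNMT1, ranged from 4.18% (day 180 replicate 3) to 14.6% (day 180 replicate 1), a wider spread within day 180 than the whole range at day 60.

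**Figure D1:**
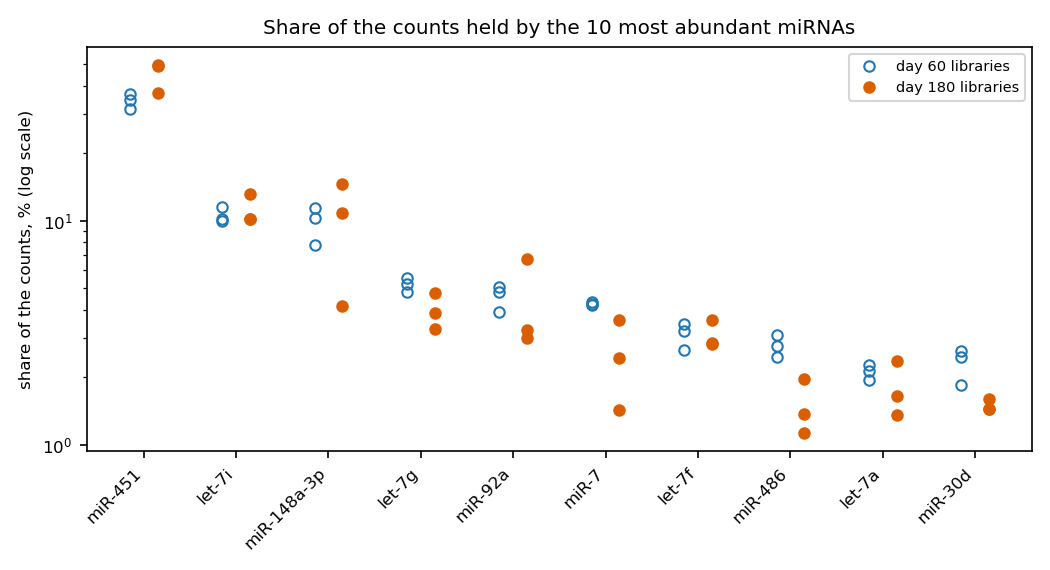
Share of the counts (%, log scale) held by each of the 10 most abundant miRNAs, with 1 point per library at day 60 (open) and day 180 (filled). The share of miR-451 lay between 31.4% and 36.9% at day 60 and between 37.0% and 49.3% at day 180, and miR-486 lay lower in all 3 day 180 libraries.

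No miRNA passed the threshold between day 60 and day 180. Of 215 miRNAs tested, 0 reached an adjusted p under 0.05 in edgeR's quasi-likelihood test (0% called; lowest adjusted p = 0.200), and 14 had an unadjusted p under 0.05 (6.51%), 5 of them higher (2.33%) and 9 lower (4.19%) at day 180. DESeq2 called 3 of 215 (1.4%), miR-20b, miR-210 and miR-7857-3p, all lower at day 180. limma on TPM values and limma voom called 0, with 16 and 14 miRNAs at an unadjusted p under 0.05. Without day 180 replicate 3, edgeR called 2 of 233 (0.858%), miR-22-3p and miR-30a-5p, both lower at day 180. That library was the highest of day 180 for both, so larger differences without it followed in advance.

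With TMM factors, which centre the differences near 0, the log2 fold change was positive for 107 and negative for 108 miRNAs, its median was -0.0010, and the middle 50% of miRNAs, by rank, lay between -0.38 and 0.31. In 35 miRNAs (16.3%) the libraries of both ages did not overlap, with 16 higher (7.44%) and 19 lower (8.84%) at day 180. Overlap is judged in normalised CPM, unless shares are named, and can differ with library totals. The median standard error (SE) of a log2 fold change was 0.59. For 19 of 215 miRNAs the 95% interval of the difference lay within 2-fold in either direction. For the other miRNAs these libraries do not exclude a 2-fold difference. Scaling by library totals alone moved the median of all miRNAs to -0.54, with 32 positive and 183 negative, and of 24 miRNAs at an unadjusted p under 0.05, 1 was higher and 23 were lower. Changes under that scaling are read relative to this shift.

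**Figure D2:**
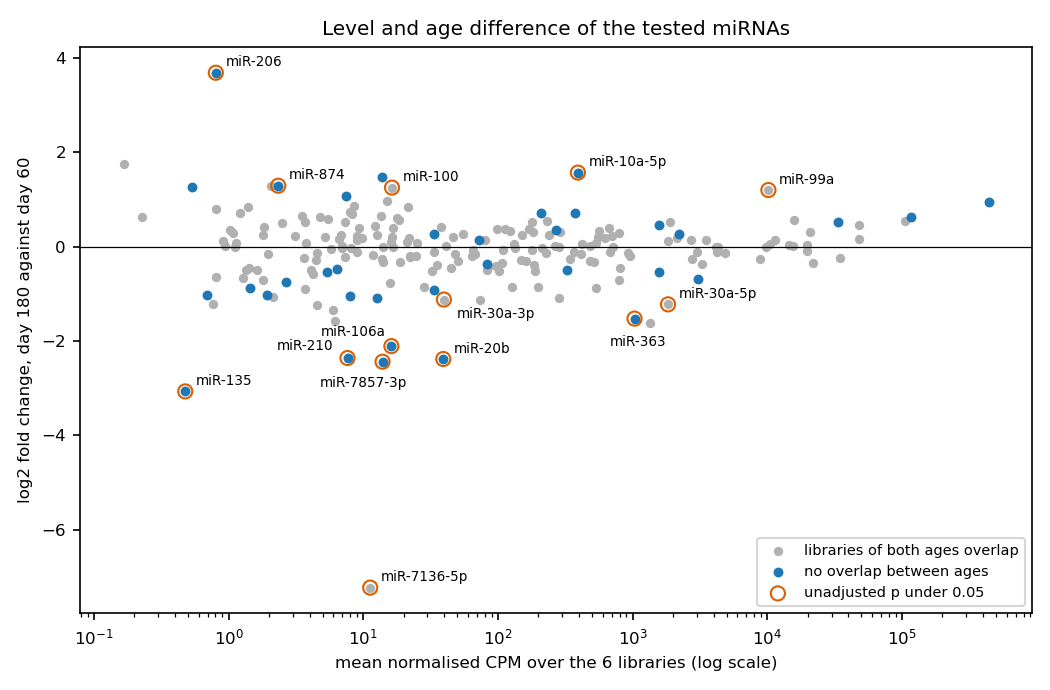
Log2 fold change of day 180 against day 60 for the 215 tested miRNAs against their mean normalised CPM (log scale), with miRNAs whose libraries did not overlap in blue and those at an unadjusted p under 0.05 circled. Among miRNAs of at least 50 normalised CPM, the circled points include miR-10a-5p and miR-99a above 0 and miR-363 and miR-30a-5p below it.

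Among the miRNAs lower at day 180 were members of the miR-106a~363 cluster, a paralogue of the miR-17~92 cluster, which drives proliferation of blood progenitors and lymphocytes. miR-363 was at 2608, 897 and 1099 normalised CPM at day 60 and at 849, 415 and 335 at day 180. Every day 180 library was below every day 60 library, and day 60 replicate 1 was the highest. Its log2 fold change was -1.53 ± 0.46 (SE, n = 3 per age; edgeR adjusted p = 0.221). miR-20b was at 138, 37.0 and 22.9 normalised CPM at day 60 and at 10.2, 12.9 and 14.8 at day 180, again without overlap and again highest in day 60 replicate 1. Its log2 fold change was -2.38 ± 0.73 (edgeR adjusted p = 0.221; DESeq2 adjusted p = 0.0418). miR-106a was at 51.2, 16.8 and 10.9 normalised CPM at day 60 and at 5.41, 8.28 and 4.57 at day 180 (log2 fold change -2.11 ± 0.71, edgeR adjusted p = 0.272).

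Day 60 replicate 1 set much of the size of these differences. Without it the log2 fold change became -0.96 for miR-363, -1.30 for miR-20b and -1.23 for miR-106a, all at an edgeR adjusted p of 1. These 3 miRNAs did not overlap over all libraries of both ages, so leaving 1 out could not make them overlap. In the RefSeq annotation of the Sscrofa11.1 assembly, miR-363, miR-20b, miR-106a, miR-18b, miR-92a and miR-19b have neighbouring genes in 1 cluster. miR-92a and miR-19b are also encoded in the miR-17~92 cluster, so their counts mix both sources. miR-18b was near the detection limit, at 3.60, 1.21 and 0.109 normalised CPM at day 60 and 1.45, 1.74 and 2.71 at day 180. Only day 60 replicate 1 lay above the day 180 libraries, and the other day 60 libraries lay below them. It thus did not share the lower day 180 levels of miR-363, miR-20b and miR-106a.

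Members of the miR-17~92 cluster itself overlapped between the ages. miR-17-5p, its namesake, was at 1157, 1068 and 704 normalised CPM at day 60 and at 617, 1062 and 987 at day 180, and miR-20a averaged 531 ± 83.0 and 431 ± 119 (SD, n = 3). miR-92a, the most abundant member, was at 33069, 42245 and 46281 normalised CPM at day 60 and at 36658, 42560 and 88131 at day 180, where replicate 3 stood far above the rest. Of the 13 tested members of both clusters and their paralogues, 4 had a positive and 9 a negative log2 fold change, with a median of -0.15. With DESeq2 size factors 5 were positive and with library totals 0. miR-20b and miR-106a resemble miR-20a and miR-17-5p closely, and the way reads were divided among such miRNAs is unknown here, which leaves these 4 levels uncertain.

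miR-210, the miRNA induced through the hypoxia-inducible factor HIF, was at 14.4, 17.6 and 6.42 normalised CPM at day 60 and at 3.16, 2.14 and 2.14 at day 180. The ages did not overlap, and all day 180 libraries were above the level that a count of 0 allows. Its log2 fold change was -2.36 ± 0.62 (edgeR adjusted p = 0.200; DESeq2 adjusted p = 0.00419), and it stayed between -2.79 and -2.11 when any library of the 2 ages was left out. miR-7857-3p, a little-studied miRNA, was at 38.0, 15.1 and 17.4 normalised CPM at day 60 and at 4.09, 3.47 and 5.42 at day 180. It showed a log2 fold change of -2.44 ± 0.65 (edgeR adjusted p = 0.200; DESeq2 adjusted p = 0.00419), or -1.96 without day 60 replicate 1. Both were lower in 3 of 3 day 180 libraries than in any day 60 library. The edgeR adjusted p of miR-210 rose to 0.839 without day 60 replicate 1. That of miR-7857-3p reached 0.901 among the alternatives.

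Both arms of the miR-30a hairpin were lower in 2 of 3 day 180 libraries. miR-30a-5p, which restrains autophagy through Beclin 1, was at 2867, 1700 and 3138 normalised CPM at day 60 and at 515, 454 and 2330 at day 180. Day 180 replicate 3 lay within the range of day 60, and the other day 180 libraries lay far below it. The log2 fold change was -1.22 ± 0.57 (edgeR adjusted p = 0.725), and without day 180 replicate 3 it was -2.53 (adjusted p = 0.0459). The other arm, miR-30a-3p, was at 45.8, 37.5 and 79.9 normalised CPM at day 60 and at 20.6, 12.5 and 41.9 at day 180 (log2 fold change -1.12 ± 0.52, or -1.85 without day 180 replicate 3). Day 180 replicate 3 was the highest of its age for both arms. The larger differences without it thus followed in advance and are no independent evidence. Of the 10 tested members of the miR-30 family, 7 had a negative log2 fold change and 2 an unadjusted p under 0.05, with a median of -0.16. With library totals 9 of the 10 were negative, at a median of -0.71.

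miR-22, known as a regulator of red-cell maturation and of the epigenetic enzyme TET2, had a pattern like that of miR-30a in its main arm. miR-22-3p was at 882, 502 and 684 normalised CPM at day 60 and at 175, 224 and 727 at day 180. Day 180 replicate 3 was again within the day 60 range. The log2 fold change was -0.88 ± 0.47 (edgeR adjusted p = 0.868), and -1.90 without that library (adjusted p = 0.0459). As that library was the highest of day 180, the larger difference without it followed in advance. Its other arm, miR-22-5p, did not overlap, at 37.0, 53.3 and 42.4 normalised CPM at day 60 and 25.8, 24.03 and 19.8 at day 180 (log2 fold change -0.93 ± 0.49, edgeR adjusted p = 0.862). Day 180 replicate 3 was thus the highest library of its age for miR-22-3p and the lowest for miR-22-5p.

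Further miRNAs were lower at day 180 without overlap. miR-199a-3p, known from mesenchymal cells and platelets, was at 12.3, 7.75 and 12.2 normalised CPM at day 60 and at 5.14, 4.67 and 5.85 at day 180, a log2 fold change of -1.04 ± 0.54 (edgeR adjusted p = 0.862). Its other arm miR-199a-5p (-0.89 ± 0.58) and the neighbouring miR-214 (-0.48 ± 0.70) also had lower levels in every day 180 library, close to the detection limit for miR-199a-5p. miR-1839-5p was at 15.7, 18.5 and 17.4 normalised CPM at day 60 and at 7.51, 9.34 and 7.56 at day 180 (log2 fold change -1.08 ± 0.52, edgeR adjusted p = 0.736). miR-148b-3p, which shares its seed with miR-148a-3p, had little spread within either age, at 3775 ± 245 and 2356 ± 29.1 normalised CPM (SD, n = 3). Its log2 fold change was -0.68 ± 0.48. miR-185 (-0.53 ± 0.44), miR-7139-5p (-0.50 ± 0.43) and miR-148a-5p (-0.36 ± 0.39) were also lower in every day 180 library.

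Of the miRNAs higher at day 180 without overlap, miR-10a-5p had the largest log2 fold change among those of at least 50 normalised CPM. It is encoded in a HOX cluster and limits inflammatory signalling in endothelium. Its level was 116, 169 and 309 normalised CPM at day 60 and 741, 706 and 316 at day 180. Day 60 replicate 3 and day 180 replicate 3 lay within a few percent of each other, while the other libraries were far apart. These 2 libraries had 2836 and 2216 counts, so with library totals the ages overlapped. The log2 fold change was 1.57 ± 0.47 (edgeR adjusted p = 0.221), or 1.05 with library totals. The other arm, miR-10a-3p, was close to the detection limit, at 0.617, 1.41 and 0.979 normalised CPM at day 60 and 2.50, 1.87 and 0.999 at day 180. miR-10b, from another HOX cluster, overlapped at 11.6 ± 2.93 and 13.7 ± 2.52 normalised CPM (SD, n = 3).

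**Figure D3:**
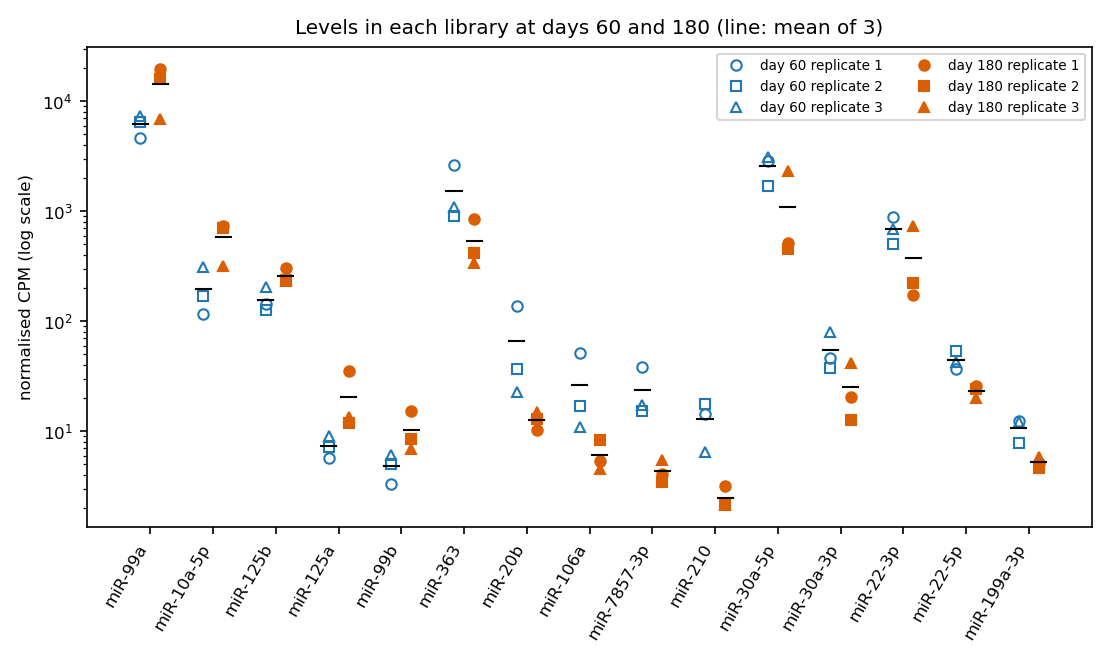
Normalised CPM (log scale) of 15 miRNAs in each library at day 60 (open) and day 180 (filled), with replicates marked by shape and the mean of 3 libraries by a line. Day 180 replicate 3 (filled triangle) lies among the day 60 libraries for miR-99a, miR-30a-5p, miR-30a-3p and miR-22-3p, at 6857, 2330, 41.9 and 727 normalised CPM.

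The miR-99/100 and miR-125 miRNAs, which share host transcripts with let-7 genes and act on mTOR signalling and on haematopoietic progenitors, were higher at day 180 in all 5 tested members. The median log2 fold change was 1.20, beside -0.0010 over all 215 miRNAs, and the 5 remained positive with DESeq2 size factors (median 1.20) and with library totals (median 0.68). None passed the test, 2 had an unadjusted p under 0.05, and 3 of 5 did not overlap, beside 16.3% of all miRNAs. That lack of overlap depended on the TMM factors, since miR-125b, miR-125a and miR-99b all overlapped with library totals. miR-125b, for example, had 1866 counts in day 60 replicate 3 and 1765 in day 180 replicate 2. miR-99a was at 4659, 6510 and 7392 normalised CPM at day 60 and at 19708, 16073 and 6857 at day 180. Day 180 replicates 1 and 2 stood above all of day 60, and replicate 3 lay within its range. The log2 fold change was 1.20 ± 0.44 (edgeR adjusted p = 0.356).

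The remaining members of this group differed in which library carried the difference. miR-125b, a regulator of haematopoiesis, was at 142, 126 and 203 normalised CPM at day 60 and at 306, 236 and 232 at day 180, without overlap (log2 fold change 0.71 ± 0.52, edgeR adjusted p = 0.999). miR-125a was at 5.76, 7.15 and 9.03 normalised CPM at day 60 and at 35.3, 11.9 and 13.6 at day 180, where replicate 1 was the highest. Its log2 fold change was 1.47 ± 0.73, or 0.90 without that library. miR-99b was at 3.29, 5.03 and 6.09 normalised CPM at day 60 and at 15.2, 8.54 and 6.85 at day 180 (log2 fold change 1.08 ± 0.61). miR-100 was at 9.15, 14.2 and 5.66 normalised CPM at day 60 and at 11.5, 11.7 and 45.9 at day 180, so its difference rested on replicate 3, without which the log2 fold change was 0.15 in place of 1.25. miR-99a and miR-100 closely resemble each other and may share reads.

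Genes of these miRNAs neighbour let-7 genes in the RefSeq annotation. miR-99a lies beside let-7c, miR-100 beside a let-7a gene, and miR-125a and miR-99b beside let-7e. let-7c was at 1097, 1606 and 1265 normalised CPM at day 60 and at 1826, 1627 and 2037 at day 180, a log2 fold change of 0.47 ± 0.48. let-7e had a negative log2 fold change of -0.22 ± 0.55, opposite in sign to miR-125a and miR-99b of the same cluster. let-7a is made from several genes, so its level of 18604 ± 1261 and 23020 ± 7008 normalised CPM (SD, n = 3) does not report on 1 cluster.

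**Figure D4:**
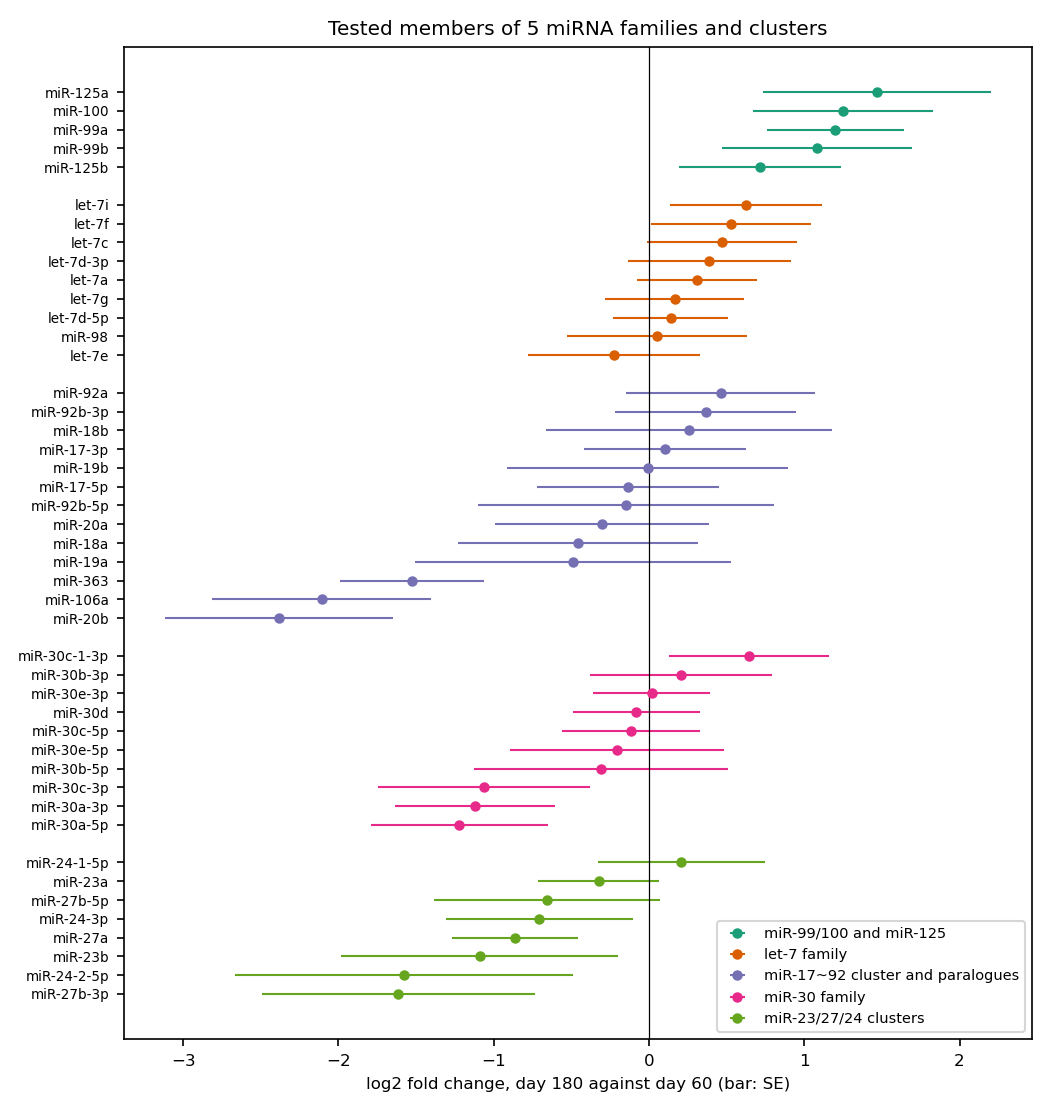
Log2 fold change of day 180 against day 60, with its SE as a bar, for each tested member of 5 families and clusters. All 5 miR-99/100 and miR-125 members lie above 0, and miR-363, miR-106a and miR-20b stand apart below 0 at -1.53, -2.11 and -2.38.

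Members of let-7, a family that builds up during differentiation and represses growth genes, had a positive log2 fold change in 8 of 9 tested cases with TMM factors, but in 1 of 9 with library totals and in 3 of 9 without day 180 replicate 3. The median was 0.31 with TMM factors and -0.24 with library totals, where the median of all miRNAs was -0.54. Without day 180 replicate 3 the median was -0.06, where that of all miRNAs was -0.19, with 81 positive and 149 negative. The let-7 median thus stayed above that of all miRNAs, by 0.30 and 0.13. let-7i, the most abundant member, was at 97007, 88008 and 92561 normalised CPM at day 60 and at 161485, 134115 and 132359 at day 180. Every day 180 library was higher, and the spread within each age was small. The log2 fold change was 0.62 ± 0.49 (edgeR adjusted p = 0.999), but 0.08 with library totals. let-7f was at 29247, 23316 and 29313 normalised CPM at day 60 and at 44069, 36931 and 37236 at day 180 (log2 fold change 0.53 ± 0.52, but -0.01 with library totals). let-7g overlapped, at 45474 ± 1718 and 50976 ± 9990 normalised CPM (SD, n = 3).

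Further miRNAs were higher at day 180 without overlap. The level of miR-451 was 292052, 324808 and 285896 normalised CPM at day 60 and 453614, 646540 and 644168 at day 180, with a log2 fold change of 0.95 ± 0.74 (edgeR adjusted p = 0.999), or 0.40 with library totals. miR-9841-3p was at 172, 293 and 389 normalised CPM at day 60 and at 490, 519 and 394 at day 180. Its log2 fold change was 0.72 ± 0.66 (edgeR adjusted p = 0.999), or 0.19 with library totals. It overlapped with library totals, with 3577 counts in day 60 replicate 3 and 2759 in day 180 replicate 3. miR-7134-5p had little spread, at 239 ± 7.62 and 305 ± 3.25 normalised CPM (SD, n = 3), and a log2 fold change of 0.35 ± 0.49. miR-425-5p averaged 1993 ± 88.1 and 2398 ± 116 normalised CPM, and miR-505 68.6 ± 0.911 and 75.1 ± 5.17. With library totals the differences of miR-7134-5p (-0.19), miR-425-5p (-0.28) and miR-505 (-0.41) turned negative.

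Some miRNAs of few counts had an unadjusted p under 0.05. miR-206, a skeletal-muscle miRNA, had 1 count in each day 60 library and 25, 7 and 2 counts at day 180. The pooled ratio was 14.8, with a 95% interval from 4.66 to 75.3 for counting error only, and the fitted log2 fold change fell from 3.69 to 2.43 without day 180 replicate 1. Other muscle miRNAs overlapped, with 2 and 6 counts in all at the 2 ages for miR-133a-3p and 26 and 34 for miR-1. Day 180 replicate 1 had the most counts of all 6 libraries for miR-206, miR-133a-3p and miR-1. miR-135 had 6, 11 and 8 counts at day 60 and 0, 2 and 0 at day 180, a ratio of 9.57 in favour of day 60 (95% interval 2.39 to 83.3, counting error only). miR-874 had 11, 15 and 13 counts at day 60 and 34, 23 and 17 at day 180 (log2 fold change 1.29 ± 0.59, edgeR adjusted p = 0.725).

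miR-7136-5p differed as much between libraries of 1 age as between ages. It had 183, 1 and 444 counts at day 60 and 2, 1 and 0 at day 180. The pooled ratio was 160 in favour of day 60 (95% interval 54.6 to 779, counting error only), but day 60 replicate 2 was at the level of day 180. The edgeR adjusted p was 0.356.

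The erythroid list held miR-451, miR-144, miR-486 and the miR-183/96/182 cluster, which targets FOXO factors. miR-451 was the single member with a positive log2 fold change and the other 5 were negative, with a median of -0.39 over the 6, or -0.94 with library totals. miR-451 and miR-144 come from neighbouring hairpins. miR-144 was at 118, 128 and 43.1 normalised CPM at day 60 and at 60.3, 91.2 and 64.1 at day 180, so it overlapped while miR-451 did not. miR-182 averaged 162 ± 22.2 and 133 ± 42.3 normalised CPM, and miR-183 and miR-96-5p averaged under 10 at both ages.

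Of 9 tested lymphoid miRNAs, 0 were without overlap, beside 16.3% of all miRNAs, which is no result about so short a list. The list had 7 of 9 positive log2 fold changes with a median of 0.09, with DESeq2 size factors 6 of 9 were positive, and with library totals 0 of 9. miR-150, which controls MYB in maturing B and T cells, was at 1583, 1243 and 1889 normalised CPM at day 60 and at 3345, 1656 and 1723 at day 180, where only replicate 1 stood out. miR-181a, which sets the sensitivity of T-cell receptors, averaged 4289 ± 193 and 4291 ± 898 normalised CPM (SD, n = 3). miR-155-5p, which rises when lymphocytes are activated, averaged 148 ± 21.8 and 191 ± 47.0. miR-342 averaged 706 ± 157 and 651 ± 146.

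Of 6 tested innate immune miRNAs, 1 did not overlap, a share near the 16.3% of all miRNAs. It was miR-132, at 6.36 ± 0.954 and 4.41 ± 0.906 normalised CPM (SD, n = 3). The 6 tested members were split into 3 positive and 3 negative log2 fold changes, or 0 and 6 with library totals. miR-146a-5p, which dampens signalling to NF-kB, averaged 2001 ± 87.9 and 2256 ± 233 normalised CPM, and the 95% interval of its difference lay within 2-fold (log2 -0.58 to 0.92). miR-21, raised in many inflamed tissues, averaged 3372 ± 285 and 3699 ± 2311, with day 180 libraries at 5998, 3723 and 1376. miR-146b averaged 20.1 ± 14.7 and 11.8 ± 2.38.

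Platelet miRNAs had a positive log2 fold change in 8 of 11 tested members with a median of 0.20, but in 2 of 11 with library totals and in 4 of 11 without day 180 replicate 3. The platelet median lay above that of all miRNAs by 0.18 and 0.15 in these fits, beside 0.20 with TMM factors and all libraries. miR-151-3p, the most abundant, was at 5062, 11028 and 21886 normalised CPM at day 60 and at 24448, 18330 and 13529 at day 180. miR-191 averaged 9825 ± 664 and 9777 ± 2646, and miR-221-3p, which limits KIT in erythroid cells, 586 ± 25.1 and 663 ± 72.1. The 95% intervals of both differences lay within 2-fold.

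The miR-23/27/24 clusters, found in myeloid and endothelial cells, had a negative log2 fold change in 7 of 8 tested members with TMM factors and with DESeq2 size factors, in 8 of 8 with library totals, but in 1 of 8 without day 60 replicate 2. miR-27b-3p was at 468, 4878 and 706 normalised CPM at day 60 and at 532, 469 and 977 at day 180. miR-23b was at 103, 935 and 123 and at 112, 159 and 274, and miR-24-3p at 438, 1803 and 732 and at 808, 601 and 414. Day 60 replicate 2 was the highest library for all of these, and without it the log2 fold change of miR-27b-3p turned from -1.61 to 0.12 and that of miR-23b from -1.09 to 0.64. miR-27a was at 176, 348 and 250 normalised CPM at day 60 and at 206, 126 and 94.3 at day 180, a log2 fold change of -0.86 ± 0.41.

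Most members of the other families overlapped between the ages. The 7 tested myeloid miRNAs came mostly from the miR-23/27/24 clusters. They had 1 positive and 6 negative log2 fold changes with a median of -0.45. All 7 were negative with library totals, where 183 of all 215 miRNAs were negative. In the fit without day 60 replicate 2, which tested 8, 5 were positive and 3 negative, with a median of 0.04. The negative direction of this list thus rested on that library. The miR-29 family, which represses collagens, was negative in 3 of 3 members, with miR-29a at 934 ± 131 and 684 ± 158 normalised CPM (SD, n = 3). Without day 60 replicate 1, 2 of the 3 were positive, with a median of 0.22. The same number were positive without day 180 replicate 1, with a median of 0.11. The miR-15/16 family, which targets BCL2, was positive in 1 of 3, with miR-16 at 4419 ± 2395 and 4110 ± 1555 normalised CPM. The miR-148 family was positive in 2 of 5, and the 2 members without overlap, miR-148b-3p and miR-148a-5p, were the lower ones described above, beside 16.3% of all miRNAs without overlap. Of 13 listed miRNAs of the imprinted DLK1-DIO3 cluster, 1 passed the filter on low counts, miR-127, at 1.10 ± 0.950 and 1.17 ± 1.49 normalised CPM.

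For some abundant miRNAs the 95% interval of the difference was narrow. miR-128, known from neurons and lymphocytes, averaged 4159 ± 373 and 4150 ± 685 normalised CPM (SD, n = 3), with a log2 interval of the difference from -0.69 to 0.68. miR-26a, a repressor of EZH2, had a log2 fold change of 0.02 with an interval from -0.70 to 0.74. That of miR-140-3p was 0.03, from -0.76 to 0.82.

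Lists of other tissues were low in level, apart from miR-128 of the brain list, given above, and miR-9 of the same list at 120 ± 35.5 and 94.5 ± 11.4 normalised CPM (SD, n = 3). The epithelial list, with miR-429 and miR-205 measured, summed to 0.109 to 0.604 normalised CPM at day 60 and 0.134 to 0.659 at day 180, around the level that a count of 0 allows. miR-122, the liver miRNA, was at 5.65, 12.6 and 12.3 normalised CPM at day 60 and at 11.997, 4.005 and 43.4 at day 180, highest in replicate 3. miR-192, shared by liver and intestine, averaged 66.8 ± 10.5 and 63.3 ± 11.9 normalised CPM (SD, n = 3). The muscle list summed to 43.8 to 87.9 and 38.7 to 86.5 normalised CPM, most of it miR-499-5p, and miR-133a-3p was at 0 in 3 of the 6 libraries. The part of other tissues in the differences was not tested.

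Both arms were tested for 35 hairpin names. The log2 fold changes of the arms had the same sign in 23 of these, among them miR-30a, miR-22 and miR-10a. The ratio of miR-22-3p to miR-22-5p was 15.6 at day 60 and 16.2 at day 180, each a ratio of means over 3 libraries. It does not describe each library. At day 180 these arms had 1326 and 196 counts in replicate 1, 1679 and 180 in replicate 2, and 5097 and 139 in replicate 3. miR-148a-3p and miR-148a-5p differed in sign, with a ratio of means of 922 at day 60 and 1714 at day 180. The libraries of day 180 differed here too, with 1355448 and 577 counts in replicate 1 but 382763 and 450 in replicate 3.

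The levels at all 5 ages place these differences. miR-210 averaged 127, 42.1, 12.8, 2.48 and 1.66 normalised CPM at days 0, 30, 60, 180 and 360. miR-363 averaged 491, 1022, 1535, 533 and 485, with the highest mean at day 60. miR-20b averaged 42.8, 41.2, 66.0, 12.6 and 9.86, and miR-106a 6.60, 16.9, 26.3, 6.08 and 5.78. These high day 60 means rested on replicate 1. Without it the day 60 mean was 998 normalised CPM for miR-363 and 13.8 for miR-106a, both below day 30, and 29.9 for miR-20b, below days 0 and 30. All 3 means stayed above those of day 180, which the lack of overlap fixed in advance. miR-99a averaged 3276, 12083, 6187, 14213 and 15840, which put day 60 below both neighbouring ages, and the same held for miR-10a-5p at 99.2, 292, 198, 588 and 714. miR-30a-5p averaged 2627, 978, 2568, 1100 and 242, without a steady course. let-7i averaged 14401, 53982, 92525, 142653 and 159249, a higher mean at each later age with TMM factors, which at day 360 were 0.669 to 0.724. As a share of the counts, let-7i averaged 10.5% at day 60 and 11.2% at day 180, with overlap between these ages. Its day 30 libraries were uneven, at 33019, 29231 and 99696, and the highest of them lay above every day 60 library. Contrasts of day 60 or day 180 with other ages use the same libraries and are no independent evidence.

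**Figure D5:**
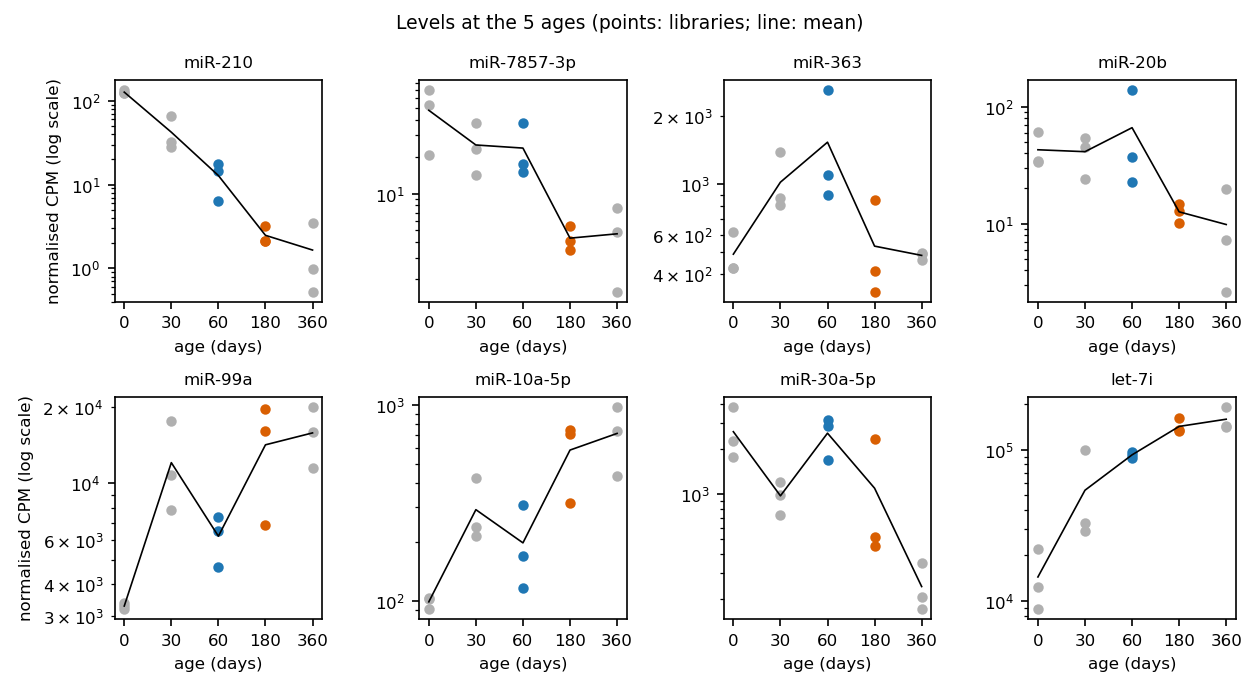
Normalised CPM (log scale) of 8 miRNAs at 0, 30, 60, 180 and 360 days (ages drawn at equal steps), with 1 point per library (day 60 blue, day 180 orange, other ages grey) and a line through the means. The day 60 mean of miR-363, 1535, is set by 1 library at 2608 and is 998 without it, and miR-99a has means of 12083, 6187 and 14213 at days 30, 60 and 180.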

How the data were processed

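Small RNA of pig whole blood had been sequenced from 15 libraries, 3 at each of 5 ages. Total RNA was taken with a mirVana kit, per the labels' protocols. The submitters' processing notes list CASAVA 1.8.2 and HISAT2 2.0.4 and give no roles. Neither counting tool nor annotation is named, and the build is likewise not given in the sources used here. The authors deposited read counts per mature miRNA and TPM values, and the deposited TPM values equal the count divided by 1 total per library with no length term. Of 295 miRNAs in the table, miR-199b-3p and miR-9-1 repeated miR-199a-3p and miR-9 and were dropped, which left 293.

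Counts were tested in R 4.3.3 with edgeR 4.0.16: filterByExpr with ages as groups (at least 10 counts, total of at least 15), which kept 215 miRNAs and removed 78, TMM factors, 1 coefficient per age over all 15 libraries, and the quasi-likelihood test of day 180 minus day 60, with Benjamini-Hochberg adjustment over all miRNAs tested and a threshold of 0.05. Each SE is the absolute log2 fold change over the square root of F. Intervals and limits from counts cover counting error only, since no molecular identifiers are mentioned.

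Principal components used log2 CPM with a prior count of 2. Alternatives were DESeq2 1.42.0, limma 3.58.1 on log2(TPM + 1) and voom, other scalings and filters, other sets of libraries, a replicate block, and each library left out. Named are miRNAs of at least 50 normalised CPM at either age without overlap (up to 10 per direction), those at an unadjusted p under 0.05, those called in any alternative, the 5 most abundant, and list members. miR-22-5p, miR-199a-3p, miR-199a-5p, miR-214, miR-1839-5p, miR-18b, miR-7, let-7e, miR-26a and miR-140-3p fall outside this rule and were chosen after their values were seen. The members and lists were chosen with earlier results of these data known. Neighbouring genes were taken as RefSeq miRNA genes within 10 kb, with 274 of 293 names matched. No mature sequences are printed.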

Additional observations from a re-analysis of the deposited data

How the results depend on the processing

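The count of miRNAs past the threshold was 0, and it was 3 with DESeq2 and 0 to 2 with 1 library left out, the 2 without day 180 replicate 3. All other alternatives gave 0. Of 40 miRNAs followed through the 24 to 26 alternatives that tested them, 30 kept the sign of their log2 fold change throughout. Most of the 40 were picked for the difference they showed in these same libraries. Keeping the sign was thus largely fixed in advance and is no independent evidence. With library totals, negative values were reached by let-7f (-0.011), let-7c (-0.073), miR-7134-5p (-0.19), miR-425-5p (-0.28), miR-505 (-0.41), let-7g (-0.38) and miR-92a (-0.088). With limma on log2(TPM + 1), they were -0.011, -0.0637, -0.19, -0.28, -0.41, -0.40 and -0.18, with miR-148a-3p at -0.16. With 1 library left out, miR-505 ranged from -0.040 to 0.29, let-7g from -0.12 to 0.39 and miR-92a from -0.16 to 0.85, each lowest without day 180 replicate 3. miR-27b-3p ranged from -2.16 to 0.12 and miR-23b from -1.64 to 0.64, both highest without day 60 replicate 2. The cause was not tested, except that both library totals and TPM omit the composition factors.

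With the replicate number as a block 0 miRNAs passed, with 12 at an unadjusted p under 0.05 in place of 14. Same-numbered libraries of both ages deviated from their age means with correlations of -0.22, 0.11 and -0.12 over 215 miRNAs. Libraries of different numbers gave -0.23 to 0.33. Such correlations over 3 libraries per age cannot tell whether same-numbered libraries share an animal. The share of miR-451 was higher at day 180 by 8.84 to 12.2 percentage points with 1 of 5 libraries left out and by 15.0 without day 180 replicate 1. Each fit lacking 1 library repeated the filter, with 220 to 233 miRNAs tested. With 3 libraries per age, the median SE of 0.59 limits what can be detected.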
